A study of Caenorhabditis elegans with 2 samples.

Results

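C-type lectin genes (clec) and saposin-like genes (spp) are 2 of the larger families of secreted defence proteins in Caenorhabditis elegans. Their promoters were examined for binding of CEBP-1, the worm's relative of mammalian C/EBP proteins. The members were chosen by name: every protein-coding gene of the WBcel235 annotation called clec- or spp- followed by a digit. That gave 271 of 19973 genes on the nuclear chromosomes, of which 240 were clec and 31 spp. The whole animals were young adults of 62 hours from strain RW12290, synchronised by L1 starvation, in which CRISPR had inserted TY1, EGFP and 3xFLAG sequences at the native cebp-1 gene on chromosome X. There was 1 group of 2 biological replicates, from separate biosamples, precipitated with an antibody that the sample description gives as against GFP and the antibody field as cebp-1. No untagged or infected group was used here, so all values describe unchallenged tagged animals. The animals were whole, so binding in 1 tissue, such as the intestine or the neurons, could not be told from binding in another.

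C-type lectin domains recognise sugars in a calcium-dependent way in many animals, and worm clec genes are known for transcription that changes with the pathogen met. Saposin-like proteins of the worm, also called caenopores, include small antimicrobial proteins that open pores in bacterial membranes. Many of these genes are expressed in the intestine, where GATA factors such as ELT-2 act on promoters holding the word TGATAA. The p38 kinase PMK-1 sets the level of several of them, and CEBP-1, which binds DNA through a bZIP domain, has known roles in stress and immune responses.

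A gene was called bound when the summit of a peak of the conservative list (1546 peaks) lay between 1000 bp upstream and 200 bp downstream of one of its annotated 5′ ends. Conservative means that the list rests on the irreproducible discovery rate (IDR) between the replicates. The signal of a peak is the authors' own score, whose scaling is not stated. Read depth is unknown.

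Of the 271, 4 had a conservative summit in the promoter (1.48%, 95% Wilson interval 0.575 to 3.73%), against 5.06% of all protein-coding genes. They were spp-18, clec-60, spp-26 and clec-126. The clec family had 2 of 240 bound (0.833%, 0.229 to 2.99%), and the spp family 2 of 31 (6.45%, 1.79 to 20.7%). The clec interval lay under the share of all genes and the spp interval held it. The intervals cover counting error only, take genes as independent and are no test of a difference. None of the 4 peaks was in the thresholded lists of both replicates. Among all genes 518 were bound in the conservative list and in both replicates' lists, a share of 2.59%, and 0 of 271 members allows a share of up to 1.11% (3 counts of 271, a limit for a count of 0 and not a Wilson bound).

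**Figure D1:**
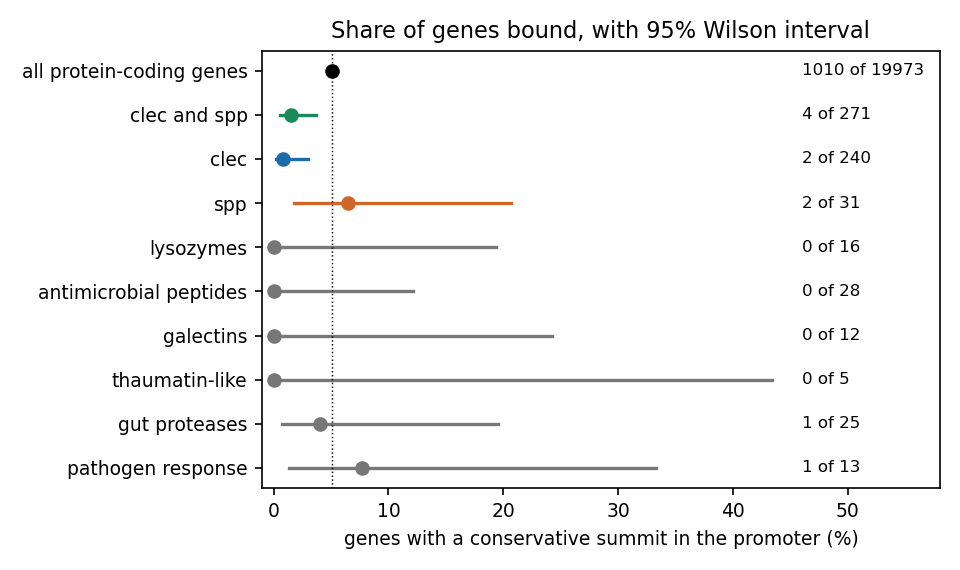
Share of genes with a conservative summit in the promoter (x axis, percent), with 95% Wilson intervals, for all protein-coding genes, for the clec and spp genes and for other immune effector lists, with counts at the right. The dotted line is the 5.06% of all genes; the clec interval lies left of it and the spp interval crosses it.

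The sequences under the 4 bound summits and under 1 further peak are shown because their contents differ. All are the plus strand of the reference of ce11. Capitals mark TGATAA in the spp-18 and clec-60 windows, annotated tRNA genes in the spp-26 and clec-126 windows, and the reverse complement of TTGCGAAA, the leading word of these peaks, in the clec-150 window. They come from chrIV:9593536-9593711, chrII:10482307-10482507, chrV:6559666-6559866, chrII:3519076-3519336 and chrIII:1001959-1002059, in that order.
spp-18: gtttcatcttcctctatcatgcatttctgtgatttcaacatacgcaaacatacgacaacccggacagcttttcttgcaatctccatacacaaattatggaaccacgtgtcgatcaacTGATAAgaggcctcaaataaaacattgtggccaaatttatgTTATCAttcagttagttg
clec-60: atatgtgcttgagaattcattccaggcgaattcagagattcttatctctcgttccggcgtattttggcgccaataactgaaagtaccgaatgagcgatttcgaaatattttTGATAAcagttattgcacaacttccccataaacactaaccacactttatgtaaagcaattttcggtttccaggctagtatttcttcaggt
spp-26: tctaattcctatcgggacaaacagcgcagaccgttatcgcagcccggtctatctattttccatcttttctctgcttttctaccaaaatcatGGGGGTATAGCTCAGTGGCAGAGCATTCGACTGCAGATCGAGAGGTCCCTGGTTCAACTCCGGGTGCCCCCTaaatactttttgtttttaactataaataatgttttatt
clec-126: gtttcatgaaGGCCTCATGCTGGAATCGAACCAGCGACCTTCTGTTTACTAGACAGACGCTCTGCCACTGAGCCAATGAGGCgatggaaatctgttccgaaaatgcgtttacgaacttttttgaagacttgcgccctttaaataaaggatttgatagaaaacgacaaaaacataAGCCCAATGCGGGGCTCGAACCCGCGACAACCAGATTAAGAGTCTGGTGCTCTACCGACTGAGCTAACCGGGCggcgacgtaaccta
clec-150: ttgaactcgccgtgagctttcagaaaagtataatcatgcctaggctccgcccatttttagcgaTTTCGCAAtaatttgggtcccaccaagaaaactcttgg

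The gene spp-18, a saposin-like member on chromosome IV (9593712 to 9594413), had the strongest peak of either family. Its signal was 129.0 in the series list and 87.63 in replicate 1, and replicate 2's ranked list held no peak over it. The global IDR was 0.000785 in the series and 0.000104 in replicate 1, the only replicate whose thresholded list contained it. The summit lay 76 bp upstream of the 5′ end, with no other gene's promoter sharing it. It ranked 635 of the 1546 conservative peaks. The window held TGATAA 2 times, with centres 20 and 61 bp downstream of the summit, and no TTGCGAAA. TGATAA lay within 100 bp of the summit in 17.2% of conservative peaks, and in the strongest ranked promoter peak of 18.1% of all genes and 25.6% of the members that had one.

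The gene clec-60, named as a C-type lectin but given a VWFA-domain product by RefSeq, is known to be induced in the intestine by Staphylococcus aureus and lies on chromosome II (10480043 to 10481874, minus strand). Its peak scored 100.3 in the series list, 70.32 in the first replicate's list and 36.94 in the second's. The global IDR was 0.00312 in the series but 0.111 and 0.253 in the replicates' own lists, so neither thresholded list held it. The summit was 533 bp upstream of clec-60 and 115 bp upstream of the divergent gene ZK666.11, whose 5′ end is the nearer. The window held 1 TGATAA, centred 14 bp from the summit, and no TTGCGAAA. clec-60 stands in a group of 5 lectin genes, and clec-58, clec-59, clec-61 and clec-143 in that group were not bound.

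The 2 weaker bound members had tRNA genes in or beside their summits, inside one for spp-26 and within 100 bp for clec-126. The spp-26 peak (signal 95.27, with 40.5 in replicate 1 and 49.67 in replicate 2) had its summit inside an annotated tRNA-Cys gene, chrV:6559757-6559828, and so did the peak of each replicate. spp-26 itself, on V (6558766 to 6559205, minus strand), sits inside the potassium channel gene twk-10. The summit was 561 bp upstream of spp-26 and 129 bp upstream of a 5′ end of twk-10. The global IDR was 0.00363 in the series, 0.0498 in replicate 1 and 0.107 in replicate 2.

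The clec-126 peak had the lowest signal of the 4, with 64.13 in the series, 44.58 in replicate 1 and 42.29 in replicate 2. The summit, placed 258 bp before the start of the gene, fell 14 bp from a tRNA-Lys gene at chrII:3519250-3519322 and 79 bp from a tRNA-Thr gene at chrII:3519086-3519157. The summit of replicate 1 lay inside the tRNA-Thr gene and that of replicate 2 inside the tRNA-Lys gene, so the replicates did not place it at the same point. It ranked 1444 of the 1546 conservative peaks. Over the whole conservative list 97 peaks (6.27%) had a tRNA gene within 100 bp of the summit, and so had the strongest promoter peak of 26 of the 1010 bound genes (2.57%). Whether these 2 peaks relate to the tRNA genes or to the members was not tested.

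None of the 4 signals was above the median of bound genes. Over the 1010 bound genes the middle signal was 130 (quartiles 98.5 and 211). The spp-18 signal (129.0) was next to that median, and the clec-60 signal (100.3) lay between it and the lower quartile. Those of spp-26 (95.27) and clec-126 (64.13) were under the lower quartile. None of the windows at the 4 summits held TTGCGAAA, which 442 of the 1546 conservative peaks held within 100 bp of the summit (28.6%). At that share 4 windows could all lack the word, so this number is too small to show a difference.

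**Figure D2:**
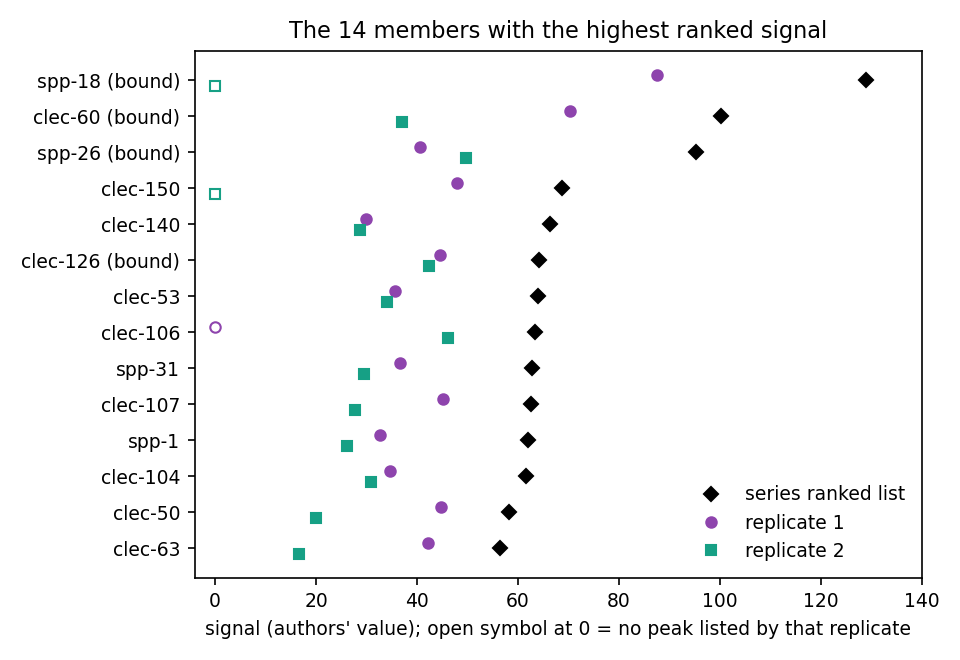
Signal (x axis, the authors' value) of the strongest ranked promoter peak for the 14 members with the highest values, in the series ranked list (diamonds), replicate 1 (circles) and replicate 2 (squares); an open symbol at 0 means that the replicate's ranked list holds no overlapping peak. Beneath spp-18, clec-60 and spp-26, the remaining members lie between 56.39 and 68.65 in the series list, with clec-126 among them.

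Some members outside the threshold had signals in the range of the weakest bound member. clec-150 on III (1002707 to 1006298) was in the thresholded list of replicate 1, with a signal of 47.82 and a global IDR of 0.00608. Replicate 2's ranked list held no peak over it, and the series gave 68.65 with a global IDR of 0.408. Its site for TTGCGAAA, printed above, was centred 17 bp from the series summit. A further conservative peak 1633 bp upstream of clec-150 (chrIII:1000922-1001225, signal 90.75) also held the word and lay outside the promoter as defined. clec-53 was the nearest to the threshold by IDR, at 0.0194 in the series (signal 63.92, with 35.63 and 34.12 in the replicates), and its summit was also in the promoter of uba-5, the activating enzyme of UFM1. After it came clec-104, which shared its peak with the iron-sulfur assembly gene ciao-1, at 0.035, and spp-31 at 0.0418. For comparison, clec-126 was the last inside, at 0.00388.

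Of the other strongest unbound members, clec-140 had a signal of 66.39 and a global IDR of 0.0743. The values were 62.49 and 0.0563 for clec-107, 63.43 and 0.741 for clec-106, 58.26 and 0.626 for clec-50, and 56.39 and 0.714 for clec-63. So clec-140 and clec-150 had more signal than the bound clec-126, and clec-53 had about as much. Their global IDR was above 0.01, the limit that every peak of the conservative list met, so they were not bound.

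The members best known from infection work are given next, by value. With 5.06% of all genes bound, few or none of so small a number would be bound at the share of all genes, so their counts show nothing particular to them. For spp-1, an antimicrobial caenopore, the summit was 6 bp inside the 5′ end. The signal was 61.97, with 32.72 in replicate 1 and 26.05 in replicate 2. Its global IDR was 0.11 in the series, 0.0128 in replicate 1 and 0.836 in replicate 2. In the ranked list matched to the optimal list of the series it was 0.0180. spp-5, whose product is the pore-forming caenopore-5, had 47.66 (31.12 and 14.66 in the replicates) at a global IDR of 0.719. spp-3 had 48.19 at 0.103, and spp-10, which is related to mammalian prosaposin, had 50.78 at 0.381. spp-9 and spp-12, the latter made in pharyngeal neurons and known from Bacillus thuringiensis infection, had no ranked peak in the promoter in the series list. None of these 6 saposin-like genes was bound, a number too small to set against the 5.06% of all genes.

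Among the lectins, clec-85, a known PMK-1 target, had 53.6 in the series list (21.19 and 27.49 in the replicates) at a global IDR of 0.274. clec-67, another PMK-1 target, had 28.4 at 0.858, with a peak in replicate 2 alone (13.0). clec-42 had 48.06 at 0.382, clec-52 had 42.15 at 0.647, and clec-39 and clec-49, known from the response to Serratia, had 28.04 and 28.62. clec-4, clec-7, clec-41 and clec-83 had no ranked peak in the promoter in the series list. Only clec-60 was bound of these lectins.

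The ranked list, which also holds peaks far below the threshold (50793 in all), showed less of a gap. A ranked summit lay in the promoter of 121 members (44.6%, 38.8 to 50.6%), against 50.6% of all genes. The clec share was 43.3% (104 of 240) and the spp share 54.8% (17 of 31). The 121 members rested on 173 peaks, since a promoter can hold several and neighbours can share 1. Among genes with a ranked peak, 4 of 121 members (3.31%, 1.29 to 8.19%) and 1010 of 10098 genes in all were bound. No peak lay in the promoter in the series or either replicate's ranked list for 98 members (36.2%), against 32.5% of all genes. Replicate 1 listed a ranked peak for 104 of the 271 members, replicate 2 for 117 and both for 60. Over all 19973 genes the same counts were 8884, 9509 and 6011.

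For the strongest ranked peak per member the middle signal was 36.8 (quartiles 27.3 and 47.9), against 38.0 (29.0 to 52.2) over the 10098 genes with one. The clec median was 35.0 and the spp median 47.7. The highest member signal was 129.0, and the highest of any gene was 3014. A global IDR of at most 0.05 was reached by 7 of the 121 members (5.79%) and by 14.3% of all genes with a ranked peak. The median summit position relative to the 5′ end was -319 bp (-295 bp for all genes, negative upstream), and 26 of 121 (21.5%) were within 100 bp of it, against 20.7% of all. The peak was in another gene's promoter as well for 29 of the 121 (24.0%, against 25.5%).

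**Figure D3:**
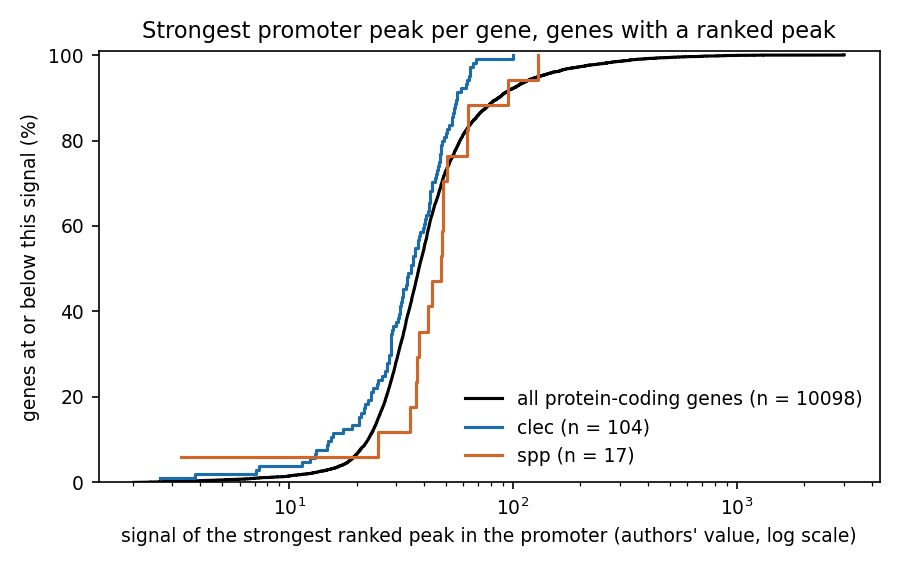
Cumulative share of genes (y axis, percent) by the signal of their strongest ranked promoter peak (x axis, the authors' value on a log scale) for all genes, clec and spp. The clec curve ends at 100.3 and the spp curve at 129.0, while that of all genes runs on to 3014.

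**Figure D4:**
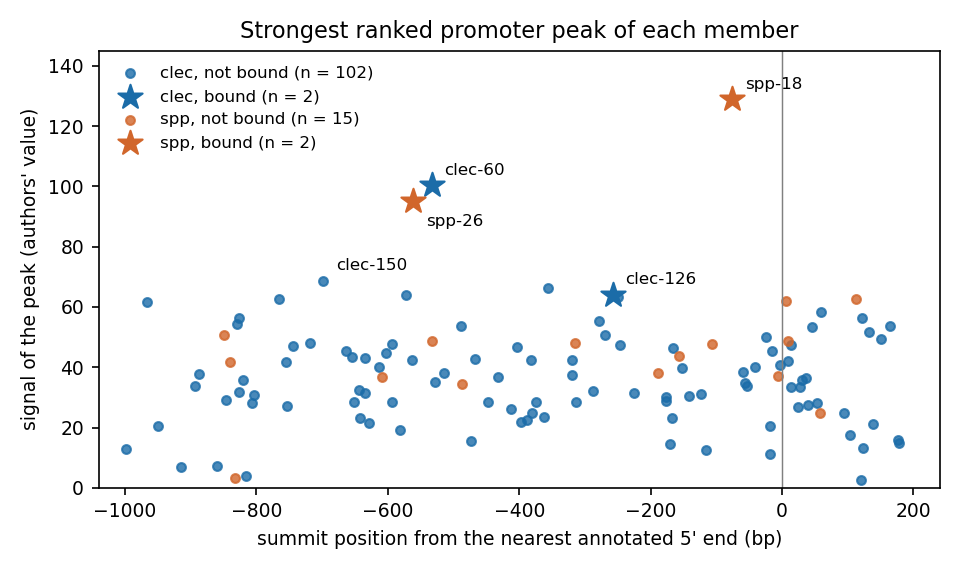
Signal (y axis, the authors' value) against summit position from the nearest annotated 5′ end (x axis, bp, negative upstream) for the strongest ranked peak per member. Stars are bound. Of the 121 members with a ranked peak, clec-80 (599 bp, signal 55.01) lies beyond the right edge and is not shown. Apart from spp-18, clec-60 and spp-26, every point lies at or under 68.65, at all distances.

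Sequence in the promoters was compared with that of all genes. TTGCGAAA, on either strand between 1000 bp upstream and 200 bp downstream of the outermost 5′ end, was in 21 member promoters (7.75%, 5.12 to 11.6%) and in 2011 promoters of all genes (10.1%). None of those 21 members was bound (Wilson interval 0 to 15.5%), against 349 of the 2011 genes (17.4%). The 21 members had 21 distinct sites, since clec-27 and clec-35 shared a site, as did clec-167 and clec-168, and clec-27 and clec-136 had 2 each. Only 6 of the sites lay in a ranked peak of the series, and 15 were in no ranked peak of the series or either replicate. The 6 were at clec-150 (signal 68.7), clec-107 (62.5), clec-88 (36.7), clec-136 (36.3), clec-12 (31.6) and the shared site of clec-167 and clec-168 (7.08). Copies under no peak included those of the Serratia-linked clec-39 and of spp-22 and spp-27.

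Other words were counted in the same way, with no test of a difference. The C/EBP consensus TTRCGYAA was in 8 of the 271 member promoters (2.95%) and in 1118 of all 19973, in the same wider window. The C/EBP-ATF composite TTGCATCA was in 3.32% and 5.13%. The GATA word TGATAA, which is part of ELT-2 sites, went the other way. In the wider window TGATAA was in 79.7% of member promoters (74.5 to 84.1%) and 72.0% of all. The gap was larger close to the 5′ end. From 250 bp upstream to 50 bp downstream it was in 147 of 271 member promoters (54.2%, 48.3 to 60.1%), against 30.3% of all. The share was 53.8% for clec and 58.1% for spp. In that window TTGCGAAA was in 4 members (1.48%, 0.575 to 3.73%) and 3.26% of all promoters. The TATA box word TATAAA was in 44.3% and 38.0%. Over all genes, a promoter with TGATAA in this window was bound in 4.35% of cases, and among members in 2 of 147 (1.36%). The median GC content of the promoters was 35.6% for members and 35.0% for all. A word match is not a shown site.

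**Figure D5:**
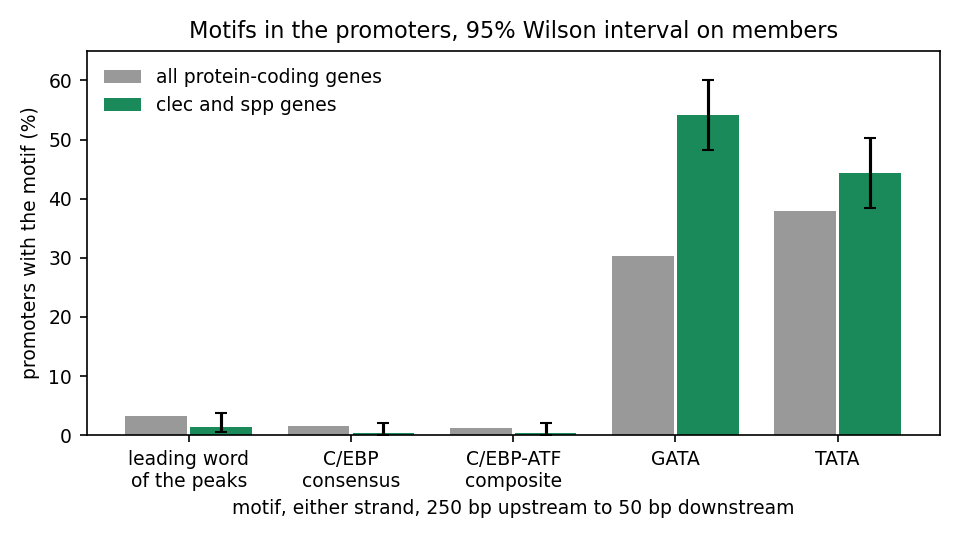
Share of promoters with each motif on either strand between 250 bp upstream and 50 bp downstream of the outermost 5′ end (y axis, percent), for all protein-coding genes (grey) and clec and spp genes (green, with 95% Wilson intervals). The leading word of the peaks is TTGCGAAA; the GATA word is at 54.2% in the members and 30.3% in all, and the leading word at 1.48% and 3.26%.

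Position in the genome was uneven. Chromosome V held 93 members, IV 58, II 50, I 40, III 16 and X 14. The bound members were 2 on II, 1 on IV and 1 on V. With the bound share of all genes on each chromosome weighted by where the members lie, the bound share would be 4.77%. Of all genes, 4.26% were bound on II, 4.36% on IV and 4.02% on V. Of the 271, 170 stood within 10000 bp of another member, in 52 groups of up to 13 genes. A ranked peak was found at 45.9% of grouped and 42.6% of single members, and 3 bound members were grouped and 1 was alone. The largest groups had 0 bound, which at the 4.02% of all genes on V and 4.36% on IV is too few genes to show a difference. They were 13 clec genes on V from clec-22 to clec-40, of which 5 had a ranked peak, and 11 on IV around clec-67 to clec-79, of which 8 had one. The saposin-like genes spp-2 to spp-6 lie together on X (7314969 to 7320354); 4 of the 5 had a ranked peak, and spp-2 and spp-6 shared a peak with a signal of 48.64.

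The members' median distance from a 5′ end to the nearest conservative summit was 43420 bp, against 28182 bp for all genes, with 47026 bp for clec and 14934 bp for spp. Within 5000 bp lay 26 members (9.59%, against 14.8% of all genes). Outside members' promoters, conservative summits fell within the bodies of clec-112 and clec-78. In clec-112, 1 lay in an intron 348 bp downstream of the 5′ end (signal 92.73), with a second, weaker peak in an exon (3.903). In clec-78, 2 overlapping peaks (83.61 and 5.709) lay in an intron, 19620 and 19839 bp downstream of its 5′ end. They were also in the promoter of W02C12.2. The share of all genes with such a summit is not given, so these members cannot be set against it. Gene models differ too. The outermost 5′ end is the start codon itself for 33.6% of members and 23.5% of all genes, and among all genes with such models 2.37% were bound, against 5.88% of the rest. Among members the shares were 1.10% (1 of 91) and 1.67% (3 of 180). Several annotated 5′ ends, each with its own promoter window, were given for 10.3% of members and 27.4% of all genes. Of all genes with several such ends 8.60% were bound, against 3.72% of those with 1. For members these shares were 3.57% (1 of 28) and 1.23% (3 of 243). Whether the gene models bear on the members' bound share was not tested.

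The list of replicate 1 held 2 members, spp-18 and clec-150 (0.738%, against 5.37% of all genes), and that of replicate 2 held 0 (against 2.91%). The optimal list of the series (1969 peaks) held spp-18, clec-60 and spp-26 (1.11%, against 6.31%). It did not hold clec-126, whose global IDR in the ranked list matched to it was 0.031.

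Other families of immune effectors were counted in the same way. Lysozymes had 0 of 16, antimicrobial peptides 0 of 28, galectins 0 of 12 and thaumatin-like genes 0 of 5. The aspartyl and cysteine protease genes had 1 of 25, asp-1, an intestinal aspartyl protease (signal 99.49, with 57.06 and 48.27 in the replicates). The pathogen response list had 1 of 13, irg-2, an infection response gene, with a signal of 685.8 (408.2 and 263.1 in the replicates). The irg-2 peak was in both replicates' thresholded lists and asp-1 in neither. Together these lists had 2 of 99 bound (2.02%, 0.556 to 7.07%), an interval that holds both the members' 1.48% and the 5.06% of all genes. A ranked peak was in the promoter of 61.6% of these genes, against 44.6% of the members and 50.6% of all genes, and 5.05% were bound in replicate 1's list, against 0.738% and 5.37%. In replicate 1's list lec-7, lec-12, asp-4 and irg-1 were bound besides irg-2. The lists are small, and a share of 0 in any of them has a Wilson interval that holds the 5.06% of all genes.

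The names were checked against the RefSeq products. A C-type lectin product was given for 207 of the 240 clec genes, and the rest were named for a PAN-3 (14), VWFA (8), CW (5) or CUB (3) domain or otherwise (3). A saposin product was given for 29 of the 31 spp genes, spp-19 was described by an activin receptor domain, and spp-28 had no product. Of the 4 bound members, spp-18 and spp-26 had a saposin product and clec-126 a C-type lectin product, while clec-60 was described by a VWFA domain.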

How the data were processed

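Chromatin immunoprecipitation sequencing was done on whole young adults, with 2 replicates in 1 group. The authors deposited peak lists on ce11, per the labels. Each deposited list gives a score and a signal per peak whose scaling is not stated. The deposited ranked lists also give the −log10 of the global IDR, and the IDR of a thresholded peak was read from its matched ranked list. The peak caller is not given in the sources used here, and read depth is unknown. Genes came from the Ensembl release 115 annotation of WBcel235 and product names and sequence from RefSeq. Summits were assigned to every annotated 5′ end from 1000 bp upstream to 200 bp downstream. A replicate's value is that of its ranked peak over the series peak. The shares of genes were computed with Python 3.11.15, with 95% Wilson intervals (scipy 1.17.1) that cover counting error only. No p-value was computed: there was no second group. Peak assignment and the word search were tested on simulated data. The members and lists were chosen with earlier results of these data known. The genes named were every member bound in a thresholded list, the 10 unbound members with the highest ranked signal and a fixed list of infection-related members. The tRNA look-up, the members with sites of TTGCGAAA and the members with peaks in the gene body or a wider promoter were chosen after their values were seen. Alternatives were another list, a stricter IDR, other promoter windows, other rules for 5′ ends and each replicate alone.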

Additional observations from a re-analysis of the deposited data

How the results depend on the processing

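With 4 members bound (2 clec and 2 spp), counts this small moved with most choices, and the cause was not tested. The optimal list gave 1 clec gene. A global IDR of at most 0.001 left 1 member (0.369%, against 3.11% of all genes), spp-18, so 0 clec and 1 spp. A promoter of 500 bp upstream to 100 bp downstream gave 2 members, 1 clec and 1 spp (0.738%, against 3.72% of all genes). In that window 77 members held a ranked peak (28.4%, against 35.7% of all genes). Giving each summit to the nearest 5′ end alone also gave 2 members (0.738%), 1 clec and 1 spp. The genes clec-60 and spp-26 were not counted, since ZK666.11 is nearer than clec-60 and twk-10 nearer than spp-26. Under that rule 799 of all 19973 genes were bound, against 1010 in the main setting. A promoter reaching 2000 bp upstream gave 7 members (2.58%, against 6.65% of all genes), 4 of them spp. Of the 7, 1 was in both replicates' lists, spp-28, whose peak (signal 422.5) lay nearer dnj-16. Using 1 replicate's list at a time, members bound ranged from 0 to 2, clec from 0 to 1 and spp from 0 to 1. Under each of these settings the share of the 2 families together was below that of all genes. That did not hold for spp alone, which had 2 of 31 (6.45%) in the conservative and in the optimal list. All genes had 5.06% and 6.31% there. With the promoter of 2000 bp, spp had 4 of 31, against 6.65% of all genes. Those genes did not each have their own peak. The spp-20 gene was counted through the spp-26 peak (signal 95.27), which lay nearer spp-26 and twk-10. No paired analysis was possible because there was 1 group. Unknown depth limits what an absent peak can show.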
